A study of Homo sapiens with 6 samples.

Results

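Expression of 10 genes of cell adhesion and mesenchymal transition was followed in SV-HUC-1 cells after exposure to 2,6-dichloro-1,4-benzoquinone (DCBQ). The genes were chosen by name, with earlier results of these data known. They are the classical cadherins CDH1, CDH2 and CDH3 and the transition factors SNAI1, SNAI2, ZEB1, ZEB2 and TWIST1. The others are the intermediate filament gene VIM and the matrix protein gene TGFBI. All 10 were found among the 60624 gene identifiers of the deposited table. SV-HUC-1 is an established human urothelial line immortalised with SV40, and DCBQ is a halogenated benzoquinone formed when drinking water is disinfected. The 3 control libraries come from cells given blank solution and the 3 DCBQ libraries from cells given DCBQ, for 3 days in both groups. Both groups share the same immortalised line, and the labels give no dose. Separate cultures are not stated for the 3 libraries of a group, so p-values here measure spread between libraries that may be technical replicates.

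Classical cadherins hold neighbouring cells together through calcium-dependent contacts, and their inner tails bind catenins that link to actin. CDH1 (E-cadherin) is the main cadherin of epithelia, CDH3 (P-cadherin) is typical of basal epithelial cells, and CDH2 (N-cadherin) is typical of mesenchymal and neural cells. In epithelial-mesenchymal transition, the SNAI, ZEB and TWIST factors repress CDH1, and cells commonly gain CDH2 and VIM. TGFBI is a secreted matrix protein induced by TGF-beta that binds integrins.

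Related genes can share reads, so the coding sequences of the main GENCODE 29 transcripts were compared. CDH1 and CDH3 are neighbours on chromosome 16, with 14.6 kb between them, and both are on the plus strand. Their longest identical coding run was 17 bases and lies in the stretch across exons 9 and 10 in each gene. The same comparison gave 18 bases for CDH1 and CDH2, 15 for CDH2 and CDH3, 11 for SNAI1 and SNAI2, 20 for ZEB1 and ZEB2, and 23 for TWIST1 and TWIST2, its close relative. The pair of adjoining cadherins and the pair with the longest run are shown, 5′ to 3′, with the identical run in capitals and 15 coding bases on each side.
CDH1: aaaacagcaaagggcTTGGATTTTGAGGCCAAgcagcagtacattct
CDH3: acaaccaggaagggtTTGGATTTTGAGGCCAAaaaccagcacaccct
TWIST1: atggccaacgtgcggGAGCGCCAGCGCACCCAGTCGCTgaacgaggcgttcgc
TWIST2: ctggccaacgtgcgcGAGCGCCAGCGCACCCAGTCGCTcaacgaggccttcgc
On GRCh38 the CDH1 stretch lies within chr16:68813484-68815549, the CDH3 stretch within chr16:68682476-68684617 (both plus strand, exons 9 and 10), the TWIST1 stretch at chr7:19116936-19116988 (minus strand, exon 1) and the TWIST2 stretch at chr2:238848423-238848475 (plus strand, exon 1). These runs are shorter than the RNA fragments described in the labels' protocol. Only exact runs in the coding sequence of the main transcripts were compared. Sharing of reads that match with mismatches, or outside the coding sequence, was not tested.

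TPM, the deposited unit, corrects a gene's reads for its length and sets each library to the same total, so levels can be compared between genes within a library. Each library listed between 26874 and 27350 genes above 0, and TPM keeps no record of sequencing depth, so depth is unknown. Genes with a mean of at least 1 TPM, 16734 in all, were tested on log2(TPM + 1) with limma, and a gene is called at a Benjamini-Hochberg adjusted p under 0.05 over all tested genes. The change was broad: 52.9% of tested genes were called, 13.4% higher (2247) and 39.5% lower (6610) in DCBQ, and the groups did not overlap for 61.2%. The split depends on scaling, since the median tested gene differed by -0.21 on the log2(TPM + 1) scale and median-of-ratios scaling, which centres the libraries on each other, gave 3995 higher (23.9%) and 3861 lower (23.1%). Genes named MT-, the mitochondrially encoded set, held 21.5 ± 0.64% of TPM in control and 28.4 ± 0.42% in DCBQ (SD, n = 3). For SNAI1, SNAI2, CDH2 and TGFBI the differences after rescaling without these genes were 0.62, -1.76, -0.97 and 0.99, all called. The part of this rise in the list counts was not tested.

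Epithelial markers were abundant in both groups. The 15 urothelial and epithelial markers summed to between 5068 and 5315 TPM in control and between 6423 and 6782 in DCBQ. Of the 12 that were tested 7 rose and 2 fell (median 0.26), beside 13.4% higher and 39.5% lower among all tested genes, and 9 rose and 1 fell after median-of-ratios scaling. The keratin genes KRT8 and KRT19 rose, from 694 ± 43 to 1283 ± 84 TPM and from 792 ± 30 to 1754 ± 27 TPM. KRT7 and KRT17 fell, from 1531 ± 21 to 1373 ± 50 TPM and from 817 ± 26 to 407 ± 14 TPM. The difference of KRT7 (-0.16) was smaller than that of the median tested gene (-0.21). The basal factor TP63 was near 0 (0.033 TPM in control and 0.075 in DCBQ) and the uroplakin gene UPK3A was listed at 0 in every library. Other basal and uroplakin genes of the list were present. The basal keratin gene KRT5 rose from 117 ± 2.1 to 303 ± 9.6 TPM and UPK1B from 19.8 ± 1.9 to 81.9 ± 5.5 TPM. UPK2 was at 15.1 ± 3.0 TPM in control and 16.6 ± 0.83 TPM in DCBQ and did not pass (adjusted p = 0.41), and UPK1A was near 0. Of 8 fibroblast markers 4 (COL1A2, COL3A1, DCN and LUM) were listed at 0 throughout, and the list summed to 6.93 to 8.17 TPM in control and 14.9 to 16.7 TPM in DCBQ. Nearly all of that was COL1A1, which rose from 6.72 ± 0.55 to 15.1 ± 1.1 TPM. Of 5 immune markers CD68 (3.85 to 8.56 TPM) and CD14 (0.939 to 2.18 TPM) rose, and PTPRC, the pan-leukocyte gene, was near 0 (0.0223 TPM in the control group, 0.0396 in the DCBQ group). In bulk RNA, fewer cells of a type and less RNA per cell cannot be told apart.

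Of the 10 genes, 8 passed the expression filter: SNAI2 and CDH2 fell, TGFBI and SNAI1 rose, and CDH1, CDH3, VIM and TWIST1 did not pass the test. That is 2 lower and 2 higher of 8 tested, beside the 39.5% and 13.4% among all tested genes. Control and DCBQ libraries were apart for 6 of the 8 tested genes, beside the 61.2% among all tested genes. ZEB1 and ZEB2 lay below the filter and were not tested. In control the order of TPM was CDH1, CDH3, VIM, TGFBI, SNAI2, CDH2, TWIST1, SNAI1, ZEB2 and ZEB1, and only ZEB2 and ZEB1 overlapped with a neighbour. In DCBQ TGFBI came first, then CDH1 and CDH3, whose libraries overlapped, then VIM and SNAI2. SNAI1, CDH2 and TWIST1 followed, with CDH2 overlapping both of its neighbours.

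**Figure D1:**
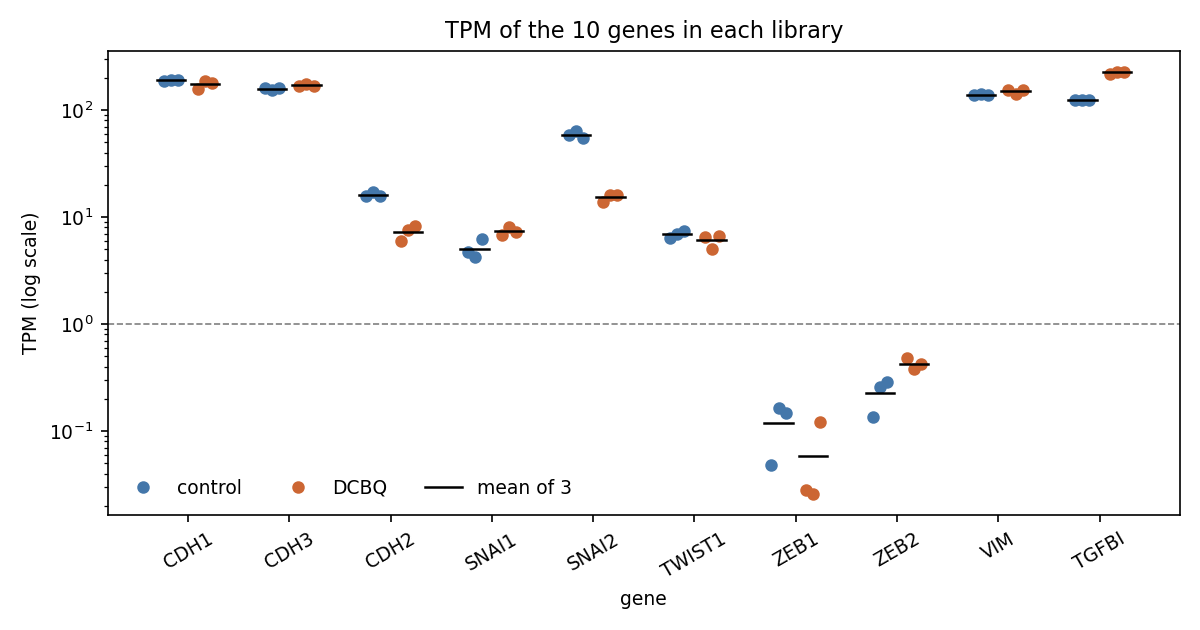
TPM of each gene on a log axis, 1 point per library, with the mean of the 3 control and 3 DCBQ libraries as bars and a dashed line at 1 TPM, the minimum mean for testing. SNAI2 drops from 58.7 to 15.3 TPM and TGFBI climbs from 123 to 224 TPM, while CDH1, CDH3 and VIM stay between 139 and 191 TPM in control and between 141 and 188 TPM in DCBQ.

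CDH1 (chromosome 16, 68737225 to 68835548, plus strand) was the most abundant of the genes in control. It was measured at 185, 191 and 190 TPM in the control libraries and at 158, 188 and 180 TPM in the DCBQ libraries. The groups overlapped, and DCBQ replicate 1 was the lowest library. The difference on the log2(TPM + 1) scale was -0.11 (95% interval -0.26 to 0.04, limma adjusted p = 0.186). Its sign depends on scaling: the difference was 0.13 after median-of-ratios scaling (adjusted p = 0.068) and 0.02 without mitochondrially encoded genes (adjusted p = 0.804).

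CDH3 (chromosome 16, 68636189 to 68722616, plus strand) had a small difference at the edge of the test. Its levels were 159, 153 and 161 TPM in control and 168, 175 and 169 TPM in DCBQ, so every DCBQ library lay above every control library. The difference was 0.11 (95% interval 0.02 to 0.21, limma adjusted p = 0.05004). It was called in 7 of 17 alternatives, among them median-of-ratios scaling (0.36, adjusted p = 0.000318), quantile normalization (0.18, adjusted p = 0.00669) and rescaling without mitochondrially encoded genes (0.25, adjusted p = 0.00147).

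CDH2 (chromosome 18, 27950966 to 28177446, minus strand) was the least abundant of these cadherins and fell 2.24-fold. It was at 15.6, 17.3 and 15.8 TPM in control and at 6.00, 7.57 and 8.17 TPM in DCBQ, with no overlap. Means were 16.2 ± 0.91 and 7.24 ± 1.1 TPM (SD, n = 3 per group), a difference of -1.07 (SE 0.12, limma adjusted p = 0.000155). The call held in all 17 alternatives, with differences between -1.16 and -0.80.

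Shares within a library do not depend on scaling between libraries, and they are given as a description with no test. CDH1 made up 51.5, 52.7 and 51.7% of the summed CDH1, CDH2 and CDH3 TPM in control and 47.5, 50.6 and 50.4% in DCBQ. CDH2 made up 4.33, 4.78 and 4.31% in control and 1.81, 2.04 and 2.29% in DCBQ, and CDH3 gained what the others lost, from 43.5 ± 0.91% to 48.4 ± 1.9%. Control and DCBQ libraries were apart for each of these shares. The ratio of CDH1 to CDH2 was 11.6 ± 0.53 in control and 24.4 ± 2.2 in DCBQ, while that of CDH1 to CDH3 was 1.2 ± 0.040 and 1.02 ± 0.075. The summed level of the 3 cadherins overlapped between the groups, at 363 ± 3.8 TPM in control and 353 ± 20 in DCBQ.

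**Figure D2:**
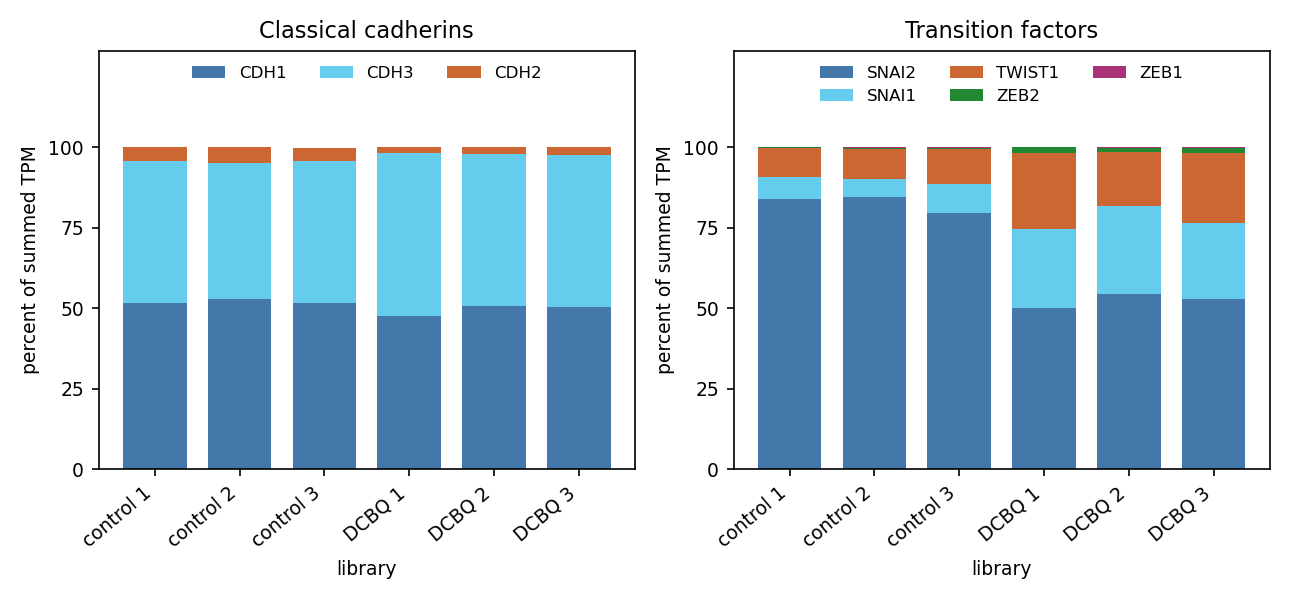
Stacked bars of the percent of summed TPM, 1 bar per library, for CDH1, CDH3 and CDH2 (left) and for SNAI2, SNAI1, TWIST1, ZEB2 and ZEB1 (right). CDH2 shrinks from 4.31 to 4.78% in control to 1.81 to 2.29% in DCBQ, and SNAI2 from 79.5 to 84.6% to 50 to 54.5%.

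SNAI2 (Slug; chromosome 8, 48917604 to 48921740, minus strand) is a zinc finger repressor of epithelial genes. It was the most abundant transition factor among the 10 genes and showed the largest difference of those tested. Its levels were 58.2, 63.6 and 54.4 TPM in control and 13.8, 16.2 and 16.1 TPM in DCBQ, far from overlapping. It fell 3.83-fold, from 58.7 ± 4.7 to 15.3 ± 1.4 TPM (SD, n = 3 per group; log2 difference -1.87, SE 0.087, limma adjusted p = 1.82e-06). At its control level 81.3% of tested genes were lower than SNAI2, and at its DCBQ level 54.1% were. The difference stayed between -1.93 and -1.62 and was called in all 17 alternatives.

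SNAI1 (Snail; chromosome 20, 49982999 to 49988886, plus strand), its paralog, moved the other way. It was at 4.67, 4.25 and 6.19 TPM in control and at 6.77, 8.06 and 7.25 TPM in DCBQ. The groups did not overlap, although control replicate 3 came close to the lowest DCBQ library. SNAI1 rose 1.46-fold (log2 difference 0.48, SE 0.15, limma adjusted p = 0.0243). This call was lost with no expression filter (adjusted p = 0.0677) and without control replicate 1 (0.0723), control replicate 2 (0.0802), DCBQ replicate 2 (0.0733) or DCBQ replicate 3 (0.0576, all adjusted p from limma). Under the scalings that centre the libraries the difference was larger, 0.69 after median-of-ratios scaling and 0.70 after quantile normalization.

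TWIST1 (chromosome 7, 19020991 to 19117672, minus strand), a basic helix-loop-helix factor, overlapped between the groups. Its levels were 6.33, 6.87 and 7.42 TPM in control and 6.50, 5.04 and 6.61 TPM in DCBQ. The difference was -0.17 (95% interval -0.47 to 0.14, limma adjusted p = 0.32), and it was 0.05 after median-of-ratios scaling and 0.06 after quantile normalization. Its relative TWIST2 was the more abundant, at 17.5 ± 2.5 TPM in control and 15.7 ± 3.4 in DCBQ, and did not pass either (adjusted p = 0.421).

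ZEB1 and ZEB2, large zinc finger and homeodomain repressors of CDH1, were close to 0 in every library. ZEB1 (chromosome 10, 31318495 to 31529814, plus strand) was listed at 0.048, 0.165 and 0.147 TPM in control and at 0.028, 0.026 and 0.121 TPM in DCBQ, which overlap. ZEB2 (chromosome 2, 144364364 to 144524583, minus strand) was listed at 0.135, 0.259 and 0.287 TPM in control and at 0.481, 0.378 and 0.424 TPM in DCBQ, which do not. With no expression filter neither passed (limma adjusted p = 0.503 for ZEB1 and 0.153 for ZEB2). The antisense gene ZEB1-AS1, which overlaps the start of ZEB1, was more abundant than ZEB1 and fell 2.78-fold (4.05 ± 0.65 against 1.46 ± 0.65 TPM, adjusted p = 0.00516). The use of strand in counting is not given in the sources used here, so reads of a gene and its antisense partner cannot be told apart. The same holds for VIM and VIM-AS1, the latter at 1.58 ± 0.95 and 2.31 ± 0.90 TPM.

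Members of the miR-200 family and miR-205 are known to repress ZEB1 and ZEB2, and their host transcripts are in the table. The mature sequences are shown, 5′ to 3′, with the seed (bases 2 to 8) in capitals, because the seed decides which targets a miRNA can pair with. They are from RefSeq on GRCh38.p14.
miR-200c-3p: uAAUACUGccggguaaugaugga
miR-141-3p: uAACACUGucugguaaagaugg
miR-205-5p: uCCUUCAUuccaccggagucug
miR-200c-3p (chr12:6963742-6963764) and miR-141-3p (chr12:6964155-6964176) come from MIR200CHG, and miR-205-5p (chr1:209432166-209432187) from MIR205HG, all on the plus strand. MIR200CHG was low, with means of 1.61 ± 0.48 (control) and 1.57 ± 0.54 TPM (DCBQ) (adjusted p = 0.931). MIR205HG fell from 61.2 ± 2.6 to 45.6 ± 4.7 TPM (adjusted p = 0.00232). It was not called with quantile-normalized values (adjusted p = 0.0658), nor with median-of-ratios scaling (0.0985). These are host transcripts in poly(A)-selected RNA, and the mature miRNAs were not measured.

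The makeup of the 5 factors differed between the groups. SNAI2 supplied 83.9, 84.6 and 79.5% of their summed TPM in control and 50, 54.5 and 52.8% in DCBQ. SNAI1 supplied 7.14 ± 1.7% in control and 25.2 ± 1.8% in DCBQ, and TWIST1 9.70 ± 1.0% and 20.8 ± 3.4%. The ratio of SNAI2 to SNAI1 was 12.5, 15 and 8.78 in control and 2.03, 2.01 and 2.22 in DCBQ. The sum of the 5 factors was 71.0 ± 3.7 TPM in control and 29.2 ± 1.5 in DCBQ, so a share can rise with no rise in TPM. TWIST1 itself was at 6.87 ± 0.55 TPM in control and 6.05 ± 0.88 TPM in DCBQ. These shares are a description with no test.

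VIM (vimentin; chromosome 10, 17228259 to 17237593, plus strand), the intermediate filament protein of mesenchymal cells, lay just below CDH3 in this epithelial line. Its levels were 139, 140 and 139 TPM in control and 153, 141 and 154 TPM in DCBQ. The groups were apart by under 1 TPM, between control replicate 2 and DCBQ replicate 2. The difference was 0.10 (95% interval -0.01 to 0.20, limma adjusted p = 0.126). It was called without DCBQ replicate 2 (0.14, adjusted p = 0.0299), after median-of-ratios scaling (0.34, adjusted p = 0.00242), after quantile normalization (0.19, adjusted p = 0.00911) and without mitochondrially encoded genes (0.23, adjusted p = 0.00476).

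TGFBI (chromosome 5, 136028895 to 136063818, plus strand) had the smallest standard error of the 8 tested genes. It was at 123, 123 and 124 TPM in control and at 219, 227 and 227 TPM in DCBQ, which put it above CDH1, CDH3 and VIM. TGFBI rose 1.82-fold, from 123 ± 0.61 to 224 ± 4.4 TPM (SD, n = 3 per group; log2 difference 0.86, SE 0.038, limma adjusted p = 1.51e-06). The call held in all 17 alternatives, with differences between 0.84 and 1.10. The ratio of TGFBI to VIM within a library was 0.884 ± 0.0063 in control and 1.51 ± 0.092 in DCBQ.

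**Figure D3:**
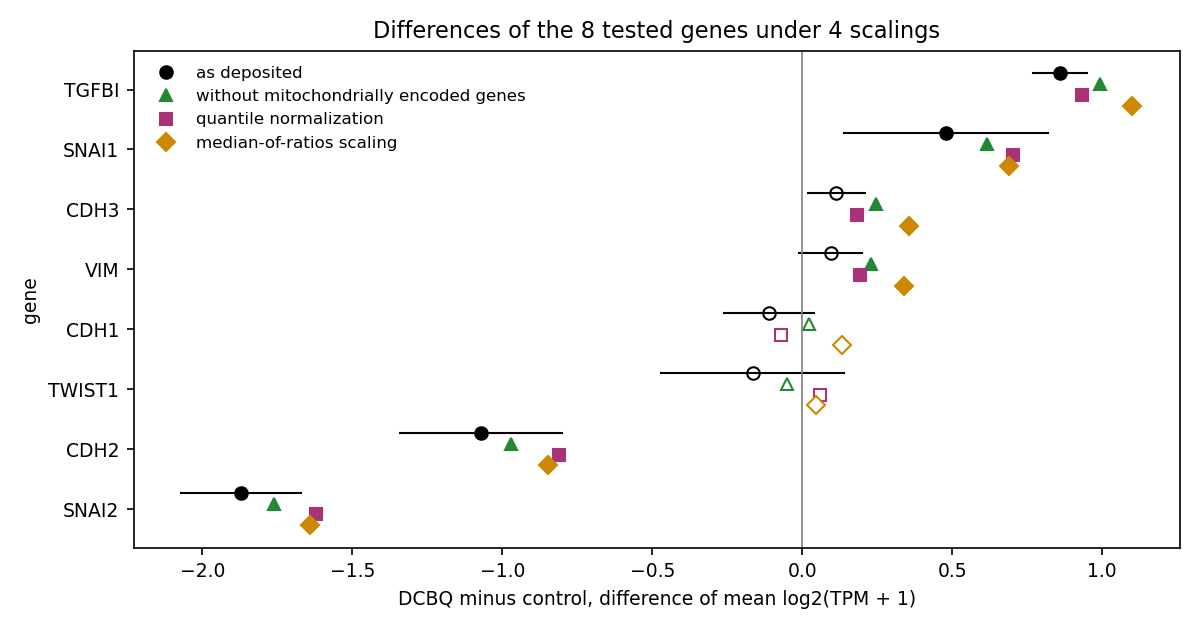
Difference of mean log2(TPM + 1), DCBQ minus control, for the 8 tested genes under 4 scalings, with filled markers for adjusted p under 0.05 and lines for the 95% interval of the values as deposited. SNAI2, CDH2, SNAI1 and TGFBI are called on the same side of 0 under all 4, CDH3 and VIM are called under 3, and CDH1 and TWIST1 cross 0.

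Counts of called genes in the gene lists stand beside 13.4% higher and 39.5% lower among all tested genes as deposited, and 23.9% and 23.1% after median-of-ratios scaling. The other 20 cadherins listed with CDH1, CDH2 and CDH3 were mostly below the filter or lower. 13 of them lay below the filter and 6 were listed at 0 in every library. Of the 7 tested, 1 rose and 4 fell (median -0.52 beside -0.21 for all tested genes), and 1 rose and 2 fell after median-of-ratios scaling. CDH4 (R-cadherin), another classical cadherin of neural tissue, fell 7.83-fold from 10.2 ± 0.048 to 1.30 ± 0.089 TPM (adjusted p = 3.27e-06), and the mesenchymal CDH11 fell 2.98-fold from 2.36 ± 0.32 to 0.792 ± 0.38 TPM. CDH13, a cadherin with a lipid anchor and no catenin-binding tail, was at 34.3, 70.2 and 33.2 TPM in control and 23.7, 22.2 and 21.9 TPM in DCBQ. It fell (log2 difference -0.90, adjusted p = 0.0161), and by 0.56 without control replicate 2 (adjusted p = 0.00113), the library at 70.2 TPM. CDH13 was not called after median-of-ratios scaling (adjusted p = 0.0672), after quantile normalization (0.0906) or with no expression filter (0.0734). CDH24 fell (-0.52, adjusted p = 0.010) and was not called after median-of-ratios scaling (adjusted p = 0.0937) or quantile normalization (0.165). CDH5, the cadherin of endothelial cells, rose from 4.24 ± 0.59 to 10.6 ± 3.2 TPM (adjusted p = 0.00171). The endothelial markers PECAM1, VWF and TEK were below 0.1 TPM on average in both groups, and KDR, at 2.63 ± 0.14 TPM in control, fell to 0.39 ± 0.034.

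Catenins and other partners of the adherens junction went both ways. Of 15 tested genes 5 rose and 7 fell (median -0.14), and 7 rose and 5 fell after median-of-ratios scaling. CTNNB1 (beta-catenin), which binds the cadherin tail, rose 1.45-fold from 192 ± 5.7 to 279 ± 5.7 TPM (adjusted p = 2.24e-05), and CTNND1 (p120-catenin), which keeps cadherins at the surface, rose 1.40-fold from 127 ± 5.8 to 178 ± 20 TPM. CTNNA1 (alpha-catenin), which links the complex to actin, was at 280 ± 6.4 and 299 ± 4.3 TPM (adjusted p = 0.0628) and was called higher after median-of-ratios scaling (0.34, adjusted p = 0.00062). AFDN (afadin), the partner of nectins, fell 2.11-fold from 178 ± 14 to 84.1 ± 9.5 TPM, and the junctional kinesin gene KIFC3 fell 1.99-fold from 97.6 ± 7.4 to 49.1 ± 2.7 TPM. Of 9 tested desmosome genes 3 rose and 2 fell (median 0.26), and 5 rose and 2 fell after median-of-ratios scaling. JUP (plakoglobin), which serves both kinds of junction, rose from 271 ± 13 to 364 ± 11 TPM and the plakophilin gene PKP3 from 79.2 ± 1.9 to 106 ± 2.0 TPM. PKP2 fell 1.75-fold to 18.0 ± 1.9 TPM and the filament anchor DSP (desmoplakin) fell 1.39-fold to 189 ± 19 TPM.

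Among FAT, Dachsous, CELSR and protocadherin genes 16 of 24 lay below the filter, and of the 8 tested 1 rose and 3 fell (median -0.53), or 1 and 2 after median-of-ratios scaling. PCDH1, an epithelial protocadherin, fell 1.48-fold from 260 ± 5.3 to 176 ± 4.3 TPM, and the planar polarity gene CELSR2 rose 1.37-fold to 53.8 ± 5.4 TPM. Genes of cadherin shedding and turnover had 3 higher and 8 lower of 13 tested (median -0.26), and 4 and 4 after median-of-ratios scaling. FURIN, a protease that matures cadherin precursors among many others, fell 1.41-fold from 79.4 ± 3.0 to 56.2 ± 0.61 TPM. The metalloprotease gene ADAM15 rose 1.30-fold to 163 ± 11 TPM and the kallikrein protease gene KLK7 3.88-fold to 13.1 ± 2.8 TPM.

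Around the transition factors, their relatives and cofactors changed in both directions. Of 16 other tested transition factors 6 rose and 5 fell (median -0.08), and 7 rose and 3 fell after median-of-ratios scaling. ETS1, the most abundant of them, fell 2.46-fold from 150 ± 9.0 to 61.2 ± 1.6 TPM (adjusted p = 1.34e-06), and TCF12, a helix-loop-helix factor, fell 2.11-fold to 25.9 ± 2.5 TPM. The forkhead gene FOXC1 rose 1.70-fold from 34.9 ± 0.58 to 59.4 ± 5.0 TPM. HMGA2 rose 3.97-fold from 0.85 ± 0.42 to 3.38 ± 0.47 TPM and TCF4 1.41-fold from 4.70 ± 0.20 to 6.63 ± 1.1 TPM. Of 17 tested corepressors that SNAI and ZEB factors recruit 3 rose and 8 fell (median -0.11), and 7 rose and 5 fell after median-of-ratios scaling. KDM1A, the LSD1 demethylase that docks on the SNAI1 N-terminal SNAG domain, rose 1.76-fold from 146 ± 2.6 to 257 ± 0.82 TPM, and the deacetylase gene HDAC1 1.69-fold to 165 ± 4.8 TPM. AJUBA, a LIM protein that bridges SNAI1 to its partners, fell 2.58-fold from 215 ± 12 to 83.3 ± 4.7 TPM. HDAC2, another deacetylase gene of the list, was called lower (65.7 ± 15 to 44.0 ± 7.0 TPM, limma adjusted p = 0.0296), although its groups overlapped. Regulators of SNAI protein stability had 2 higher and 12 lower of 19 tested (median -0.39), beside 13.4% and 39.5% of all tested genes. After median-of-ratios scaling they had 3 and 8, beside 23.9% and 23.1%. Genes that lower SNAI protein and genes that keep it are pooled here, so the counts give no direction for SNAI stability. Of those that keep it, LOXL3 (-1.09) and USP27X (-0.52) were called lower and LOXL2 (0.38) higher as deposited. GSK3B, the kinase that marks SNAI1 for destruction, fell 2.1-fold to 27.1 ± 2.6 TPM, and CSNK1E 1.54-fold to 126 ± 3.0 TPM. PEBP1, an inhibitor of RAF signalling that lowers SNAI1, rose 1.44-fold to 229 ± 0.92 TPM.

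Regulators of epithelial identity had 6 higher and 6 lower of 17 tested (median -0.01), and 10 and 3 after median-of-ratios scaling. ELF3 rose 2.90-fold from 115 ± 1.4 to 332 ± 21 TPM (adjusted p = 3.78e-07) and GRHL3 3.82-fold from 5.60 ± 0.44 to 21.4 ± 2.2 TPM, both factors of epithelial differentiation. KLF4, which can activate CDH1, fell 2.54-fold from 80.9 ± 4.5 to 31.9 ± 3.9 TPM. GRHL2, more abundant than GRHL3, was called lower as deposited (50.3 ± 1.4 to 41.6 ± 1.6 TPM, difference -0.27). So were ESRP1 (-0.34) and OVOL2 (-0.59), beside -0.21 for the median tested gene. The surface protein gene EPCAM was at 238 ± 0.94 and 236 ± 5.8 TPM (adjusted p = 0.817), with a difference of -0.01 that turned to 0.23 after median-of-ratios scaling (adjusted p = 0.00414).

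Mesenchymal markers had 4 higher and 8 lower of 17 tested (median -0.25), and 6 and 7 after median-of-ratios scaling. AXL, a receptor tyrosine kinase gene, fell from 362 ± 5.6 to 125 ± 1.3 TPM and the actin-binding TAGLN from 122 ± 14 to 8.26 ± 0.73 TPM, while the matrix protein gene SPARC rose 1.47-fold to 373 ± 19 TPM. FN1 (fibronectin), the most abundant, had means of 5787 ± 147 TPM (control) and 5690 ± 373 TPM (DCBQ, adjusted p = 0.712), and its difference of -0.03 turned to 0.22 after median-of-ratios scaling, where it was called higher (adjusted p = 0.0226). Of 9 other tested filament genes and VIM partners 3 rose and 2 fell (median 0.29), and 6 rose and 1 fell after median-of-ratios scaling. The nuclear lamin gene LMNA rose 1.45-fold to 250 ± 4.7 TPM and the cytolinker PLEC, which ties vimentin to junctions, fell 1.30-fold to 160 ± 9.8 TPM.

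TGF-beta induces TGFBI, SNAI1 and SNAI2 in many cells, and the genes of that pathway were compared as a list. Of 24 tested ligands, receptors, SMADs and modulators 2 rose and 18 fell (median -0.40 beside -0.21 for all tested genes), where 39.5% of all tested genes fell. After median-of-ratios scaling 3 rose and 9 fell, where 23.1% of all tested genes fell. The list pools genes that carry the signal with genes that restrain it, such as SMAD7 (-0.66) and SKIL (-0.51), both called lower as deposited. Its counts therefore give no direction for the pathway. The ligand gene TGFB2 fell 11.4-fold, being 2.95 ± 0.16 TPM in control and 0.258 ± 0.065 TPM in DCBQ (adjusted p = 0.000124), and the co-receptor gene TGFBR3, which presents TGFB2, fell 5.80-fold (17.1 ± 0.33 against 2.96 ± 0.34 TPM, adjusted p = 2.24e-06). TGFB1I1, a focal adhesion protein that TGF-beta induces, fell 2.59-fold from 160 ± 9.2 to 61.8 ± 4.0 TPM. The signal transducer gene SMAD3 rose 1.38-fold from 106 ± 0.56 to 145 ± 7.0 TPM, and the receptor gene TGFBR2 1.21-fold to 47.8 ± 1.6 TPM.

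**Figure D4:**
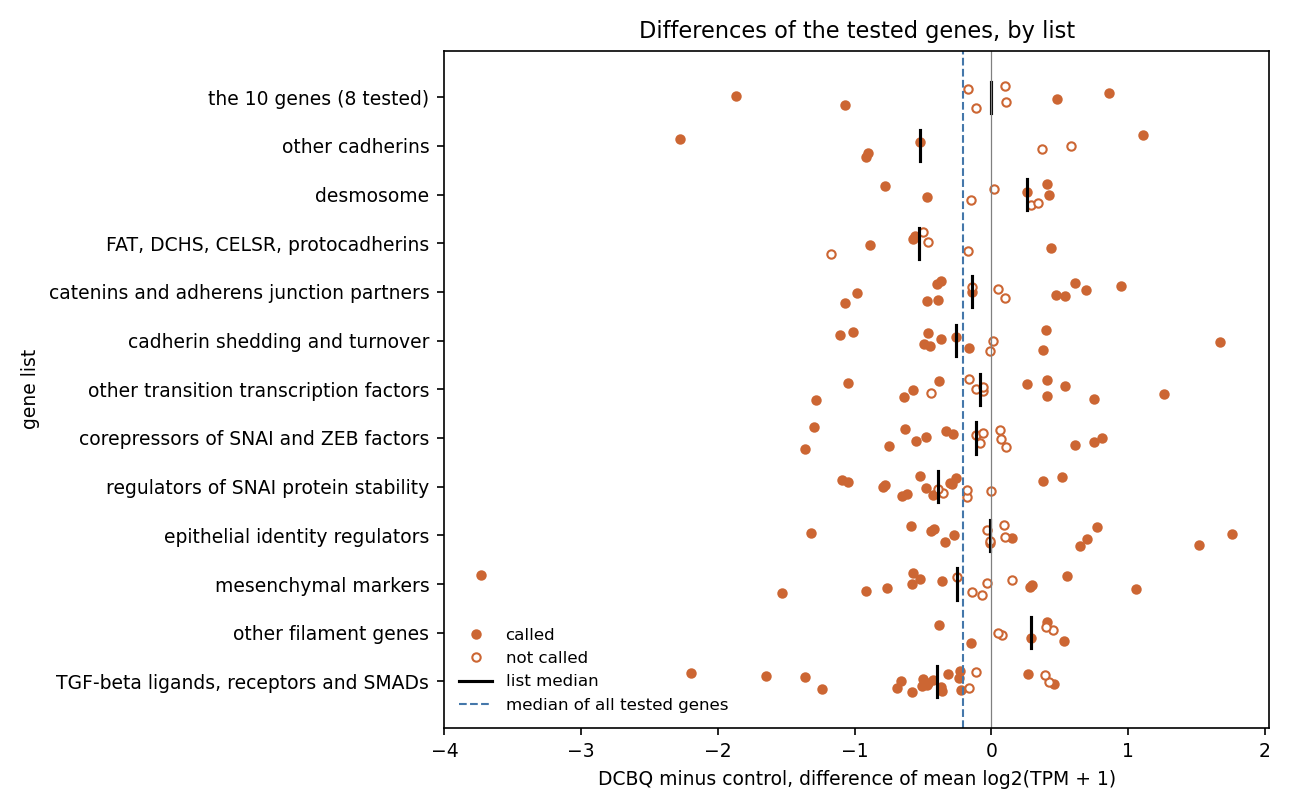
Difference of mean log2(TPM + 1), DCBQ minus control, for each tested gene (points, filled where called) in 13 gene lists, with the list median as a bar and the median of all tested genes (-0.21) as a dashed line. TGF-beta pathway genes and regulators of SNAI stability have medians of -0.40 and -0.39, and desmosome and other filament genes of 0.26 and 0.29.

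Genes whose profile over the 6 libraries lay nearest to each called gene were found by the root mean square distance between log2(TPM + 1) values centred on each gene's mean. FRMD6 (distance 0.0633), which went from 147 to 40.9 TPM, and ALDH1L2 (0.0664), from 3.94 to 0.312 TPM, lay nearest to SNAI2. ALDH1L2 fell 12.6-fold and SNAI2 3.83-fold, so they were near on the log2(TPM + 1) scale but not in fold change. With 0.1 added to TPM in place of 1, the difference of ALDH1L2 went from -1.91 to -3.3. POLK (0.0368) and ZC3H8 (0.0486) lay nearest to CDH2, with differences of -1.08 and -1.05. SRI (0.016) and STAT6 (0.0165) lay nearest to TGFBI, with differences of 0.87 and 0.86. CEP70 (0.0401) and the pseudogene H3P6 (0.0604), whose reads may be shared with histone genes, lay nearest to SNAI1.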

How the data were processed

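Poly(A)-selected RNA of 6 SV-HUC-1 libraries was measured, 3 control and 3 DCBQ, grouped by the sample titles. The authors deposited 1 table of TPM for 60624 Ensembl gene identifiers, and each column name matches 1 library name in the labels. The build was hg38 and reads were handled with HISAT2 2.2.1 and StringTie 2.1.7, beside Trimmomatic 0.38, FastQC and DESeq2 1.34.0, per the submitters' processing notes. Strand use, annotation and the step behind TPM: not given in the sources used here. Since TPM keeps no depth, no count test, counting interval or detection floor was used. The 95% intervals are limma's, for differences between groups.

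An Ensembl name table gave symbols for 42013 identifiers. Where identifiers shared a symbol, the most abundant kept it. Coordinates and transcripts are those of GENCODE 29 on GRCh38, 1-based, and miRNA sequences are RefSeq's. Genes with a mean of at least 1 TPM (16734) were tested on log2(TPM + 1), which understates changes of low genes, with limma 3.58.1 in R 4.3.3 (lmFit, eBayes with a variance trend), group as the only term, two-sided, and p-values were adjusted over all tested genes by Benjamini-Hochberg. All adjusted p-values are from limma. Ratios and ± SD are of TPM with no pseudocount. The fit was tested on simulated data of 16734 genes with 200 changed in random directions. It recovered 70.1% of log2 changes of 0.5, 97% of those of 1 and 100% of those of 2. It also called 6 unchanged genes. Far fewer genes were changed there than the 52.9% called in these data, so the simulation does not speak for so broad a change.

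The genes and lists were chosen with earlier results of these data known. Of the 67 genes tracked, 50 follow a rule: all 10 genes, the called gene with the smallest p in each direction and the most abundant gene of each list, and the 2 genes nearest in profile to each called gene. Another 17 (CDH6, CDH11, CDH24, AFDN, DSP, CTNND1, TCF12, HDAC1, GSK3B, GRHL3, TGFB2, TGFBR3, TAGLN, TWIST2, VIM-AS1, MIR200CHG and MIR205HG) were picked after values were seen. SMAD7, SKIL, TGFBR2, LOXL2, LOXL3, USP27X, GRHL2, ESRP1, OVOL2, HDAC2, HMGA2 and TCF4 were also named after values were seen. They were not tracked, so no alternatives are given for them. Of the marker lists, genes above 1 TPM and defining genes near 0 may be named. Another gene that the rule takes is counted in its list but not reported here. The 17 alternatives were pseudocounts of 0.1 and 5, no filter, a mean of at least 5 TPM, quantile normalization, median-of-ratios scaling, rescaling without mitochondrially encoded genes, leaving out each library, a block for the replicate number, array weights, robust eBayes and eBayes without trend. The labels state no link between libraries with the same replicate number, so the test has no block.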

Additional observations from a re-analysis of the deposited data

How the results depend on the processing

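The calls of SNAI2, CDH2 and TGFBI held in all 17 alternatives. Of the 67 tracked genes 51, ZEB1 and ZEB2 among them, changed neither direction nor side of the threshold in any alternative that gave a value. ZEB1 and ZEB2 were not tested as deposited, so they had no side of the threshold to keep. Their only alternative, no expression filter, uses the same values and so checks nothing for them. The number of genes called higher among the 10 was 2 as deposited, 4 after median-of-ratios scaling, 4 after quantile normalization and 4 without mitochondrially encoded genes, where CDH3 and VIM were added. It was 1 with no expression filter and between 1 and 2 with a library left out, where SNAI1 could be lost. The number called lower stayed at 2. With the replicate number as a block 8500 genes were called against 8857 without it, and 4 of the 10 in both. The deviations of same-numbered libraries from their group means correlated at -0.037, 0.045 and 0.046 across genes. Those of differently numbered libraries correlated at -0.07 to 0.028. These weak values cannot decide whether same-numbered libraries are paired, which the labels do not state. The block changed no call among the tracked genes.

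Differences that turned positive under median-of-ratios scaling were those of CDH1 (0.133), TWIST1 (0.0461), TWIST2 (0.0725), EPCAM (0.232), FN1 (0.218) and MIR200CHG (0.122). Quantile normalization turned TWIST1 (0.0579), TWIST2 (0.121), EPCAM (0.0528) and MIR200CHG (0.14). Leaving out mitochondrially encoded genes turned CDH1 (0.0224), EPCAM (0.121), FN1 (0.108) and MIR200CHG (0.0589), and array weights turned MIR200CHG (0.0868). With 1 library left out, EPCAM ranged from -0.0245 to 0.00869, FN1 from -0.0747 to 0.0195 and MIR200CHG from -0.18 to 0.14. Median-of-ratios scaling and quantile normalization bring the median tested gene from -0.214 to -0.004 and -0.011. The cause of the other changes was not tested. Depth is unknown, which limits what can be said of ZEB1 and ZEB2.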

Other observations

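Among cadherins below the expression filter, CDH6 (K-cadherin, a classical cadherin of kidney epithelium) was listed at 0.046 ± 0.025 TPM in control and at 1.72 ± 0.59 TPM in DCBQ, with no overlap. With no expression filter its difference was 1.36 on the log2(TPM + 1) scale (limma adjusted p = 0.00363). It was picked out after its values were seen.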
